A study of Mus musculus with 6 samples.

Results

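A set of 9 genes of the FoxO and muscle atrophy pathway was followed in RNA-seq of mouse satellite cells, from which skeletal muscle regenerates. They are the transcription factors Foxo1, Foxo3 and Foxo4, the ubiquitin ligase genes Fbxo32, Trim63, Fbxo21, Fbxo30 and Fbxo31, and the translational repressor gene Eif4ebp1. The genes were taken by symbol from a list, and all 9 were found among the 39059 Ensembl genes counted. All 9 also passed the filter on low counts that left 14099 genes to test.

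In muscle, FoxO factors sit downstream of insulin and insulin-like growth factor. Akt phosphorylates them and keeps them in the cytoplasm. When this signal fades they enter the nucleus and switch on genes of proteolysis, autophagy and growth arrest. Fbxo32 and Trim63, known as atrogin-1 and MuRF1, are the ligase genes by which muscle wasting is usually recognised, and both are known FoxO targets. In satellite cells FoxO factors are known for their part in quiescence.

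The cells came from hind limb muscle of C57BL/6J mice at postnatal day 19 and were sorted by flow cytometry, with RNA taken from the fresh cells. One group, with 3 libraries, was homozygous for an Lmna deletion (Lmna Δ8-11 -/-), and the other, also with 3, was wild type for it (Lmna Δ8-11 +/+). Lmna encodes the nuclear lamins A and C. The labels name no treatment and no other allele, and mention 3 mice for each genotype, but not which animal gave which library. The p-values therefore reflect variation among these 6 libraries, some of which may be technical.

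Gene reads numbered 6613636 to 9552751 per library. Lmna, the deleted gene, stood at 375 to 451 CPM (reads scaled to the library total, with edgeR's TMM factors) in homozygous and 842 to 1057 CPM in wild-type libraries, in counts that do not separate the deleted exons from the rest. Homozygous replicate 2 and wild-type replicates 2 and 3 held 3074 to 4831 reads of 4 Y-linked genes, against at most 3 in each other library. The RNA Gm42418 took 1.3 and 1.39% of gene reads in homozygous replicate 2 and wild-type replicate 2, and 0.0914 to 0.18% elsewhere. Of 12 satellite cell markers, none was at 0 in all libraries, 7 were lower in homozygous libraries and 0 higher (also 0 at an unadjusted p under 0.05 and by DESeq2). Their summed level was 1578 to 2548 CPM in homozygous libraries, with the highest value in replicate 2, and 2944 to 3043 CPM in wild type. The 10 smooth muscle and pericyte markers summed to 12878 to 13663 and 11640 to 16579 CPM, so the sorted cells also held RNA of genes typical of other cell types.

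Trim63 and Fbxo31 were higher in homozygous libraries, and the other 7 genes did not pass the test in either direction. Across all genes, edgeR's quasi-likelihood test with Benjamini-Hochberg adjustment called 21.1% at an adjusted p under 0.05, 9.67% higher and 11.5% lower. The 2 of 9 called here are 22.2%, a share near that background. At an unadjusted p under 0.05 the same 2 members passed, beside 35.9% of all genes, and by DESeq2 again these 2, beside 16.9%. Trim63 rose by 4.92 on the log2 scale and Fbxo31 by 1.18. For the 7 others the difference lay between -0.22 and 0.21, and their 95% intervals together ran from -0.52 to 0.60. In bulk RNA a change in the number of cells of a type and a change in RNA per cell cannot be told apart.

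**Figure D1:**
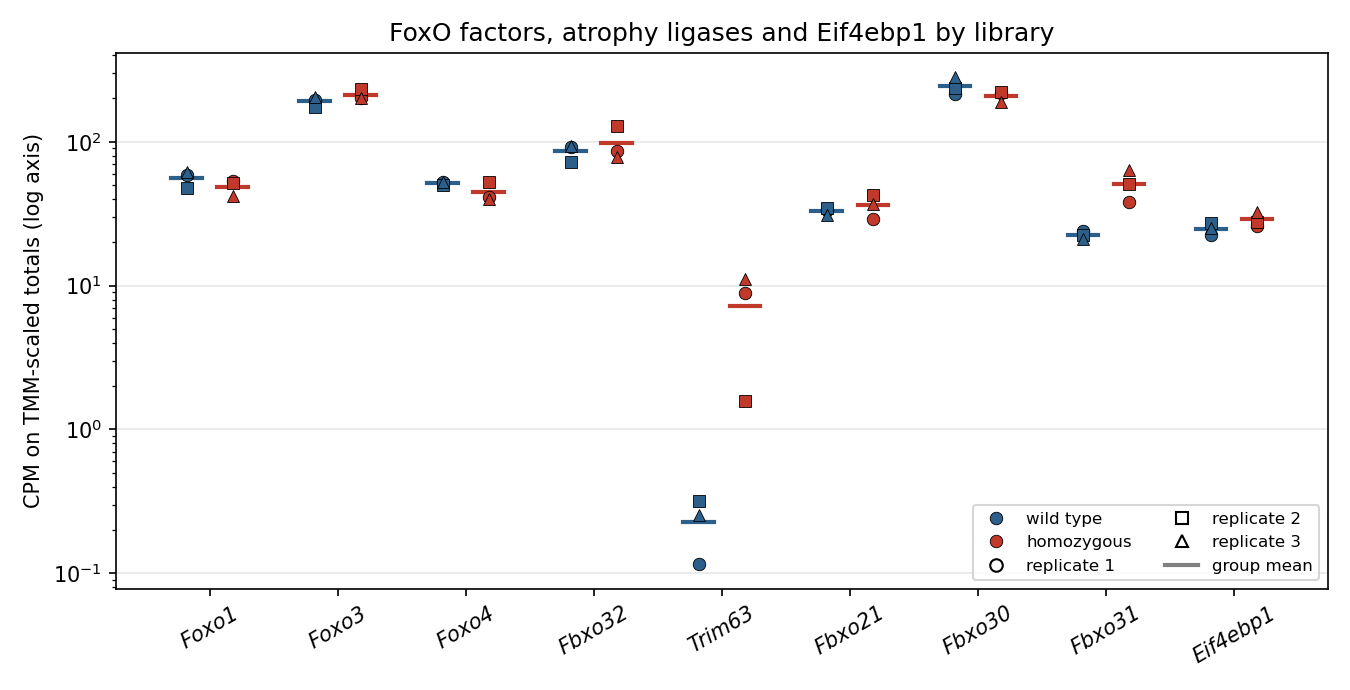
CPM on TMM-scaled totals (log axis) of the 9 genes in each library, with wild-type libraries in blue and homozygous libraries in red. Marker shapes give the replicate and bars the group means. Trim63 and Fbxo31 are the 2 of the 9 genes whose genotypes do not overlap, where 40.7% of all tested genes do not.

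The 3 FoxO factors were expressed in every library of both genotypes, and none passed the test. Foxo3, located on chromosome 10 at positions 42181841 to 42276755 on the minus strand (build GRCm38), stood at 202, 233 and 201 CPM in homozygous replicates 1, 2 and 3. It stood at 196, 173 and 205 CPM in wild-type replicates 1, 2 and 3. Homozygous replicate 2 was the highest and wild-type replicate 2 the lowest, and the other 4 libraries lay within a narrow band shared by both genotypes. The log2 fold change, homozygous minus wild type, was 0.15 (SE 0.12, 95% interval -0.12 to 0.42, adjusted p = 0.413).

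Foxo1 (chromosome 3, positions 52268336 to 52353221, plus strand), the FoxO factor best known for control of metabolism by insulin, had 53.0, 51.3 and 42.0 CPM in homozygous libraries. Wild-type libraries had 58.7, 47.9 and 61.5 CPM. The groups overlapped, through wild-type replicate 2. This gave a log2 fold change of -0.20 (SE 0.14, 95% interval -0.51 to 0.11, adjusted p = 0.325). Exons of the antisense gene Gm20402 cover 7.78% of Foxo1 exon bases, but only 14 reads were assigned to it over the 6 libraries.

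Foxo4, the X-linked family member (positions 101254528 to 101260873, plus strand), had 41.5, 52.8 and 39.7 CPM in homozygous libraries and 52.1, 50.1 and 52.2 CPM in wild type. Homozygous replicates 1 and 3 lay below all wild-type libraries and replicate 2 above them. Its log2 fold change was -0.20 (SE 0.13, 95% interval -0.49 to 0.09, adjusted p = 0.299). Over the alternatives run its adjusted p ranged from 0.0557, without the 2 libraries high in Gm42418, to 1. Foxo6, the remaining family member, was scarce, at 3.61 to 3.92 CPM in homozygous and 3.30 to 6.04 CPM in wild-type libraries.

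Per length (RPKM, which is CPM divided by exon length in kilobases), Foxo3 was the most abundant of the 3 factors, followed by Foxo4 and Foxo1, in every library. Their summed level was 46.5 ± 4.80 RPKM (SD, n = 3) in homozygous and 46.5 ± 3.31 RPKM in wild-type libraries. Foxo3 made up 59.7, 59.4 and 62.0% of that sum in homozygous and 54.4, 53.5 and 55.1% in wild-type libraries. Foxo4 made up 26.6 to 29.2% and 30.5 to 33.6%. The shares of Foxo3 and Foxo4 did not overlap between genotypes, where 40.7% of all tested genes had CPM values that did not. An exact two-sided permutation test over the 20 assignments gave p = 0.1 for each, the smallest it can give, and 0.2 after adjustment over the 4 measures compared. The shares were computed after the levels had been seen.

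Fbxo32 encodes atrogin-1, the F-box subunit that brings substrates such as MyoD to an SCF ubiquitin ligase. The gene (chromosome 15, positions 58175879 to 58214932, minus strand) had 86.4, 129 and 77.8 CPM in homozygous and 92.2, 72.0 and 93.3 CPM in wild-type libraries. Homozygous replicate 2 stood above all others, while replicates 1 and 3 lay within the wild-type range. The log2 fold change was 0.19 (SE 0.19, 95% interval -0.23 to 0.60, adjusted p = 0.505). It was -0.068 without homozygous replicate 2 and -0.18 without both libraries high in Gm42418, so its sign turned without that library. The interval of the main value reaches from 0.854-fold to 1.52-fold. Exons of the antisense gene Gm15943 cover 2.67% of Fbxo32 exon bases, with 20 reads of its own over the 6 libraries.

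Trim63 encodes MuRF1, a RING-finger ligase that marks myosin and other sarcomere proteins for degradation. Its gene is on chromosome 4, positions 134315120 to 134329629, plus strand. The 250 bases before its start (build GRCm38.p6, chr4:134314870-134315119, plus strand, from RefSeq) are shown because Trim63 was the member that differed most. Capitals mark a glucocorticoid receptor hexamer (TGTTCT) and, directly after it, a FoxO motif (TGTTTAC).
Trim63: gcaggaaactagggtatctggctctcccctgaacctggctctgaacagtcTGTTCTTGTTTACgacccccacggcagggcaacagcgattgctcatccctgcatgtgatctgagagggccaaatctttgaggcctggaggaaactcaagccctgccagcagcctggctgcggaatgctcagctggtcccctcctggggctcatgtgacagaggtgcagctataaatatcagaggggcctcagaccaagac

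Both strands of 32851 RefSeq promoters were searched over the same 250 bases. The FoxO motif GTAAACA, which reads TGTTTAC on the other strand, is in 3.17% of them. The glucocorticoid receptor hexamer AGAACA, which is TGTTCT on the other strand, is in 16.1%. In Trim63 the FoxO motif spans bases 194 to 188 before the start and the hexamer bases 200 to 195. The joined run TGTTCTTGTTTAC, searched after it had been seen in Trim63, is in 1 of the 32851 promoters, that of Trim63. As the run was copied from that promoter, a count of at least 1 was fixed in advance. How often other runs of this length recur was not tested, so the count does not set Trim63 apart. An exact full glucocorticoid response element (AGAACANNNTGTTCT) is in 3 promoters and in none of the members. The Trim63 stretch tgaacagtcTGTTCT, which ends in the marked hexamer, differs from it only in the first letter. Near matches were not searched in the other promoters. Of the 6 members with a promoter in the table (Foxo1, Foxo3, Trim63, Fbxo21, Fbxo30 and Fbxo31), Trim63 was the one with either motif. A match describes letters and does not show binding.

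Trim63 RNA was nearly absent from wild-type libraries, with 1, 2 and 2 reads, or 0.116, 0.318 and 0.254 CPM. Homozygous replicates 1, 2 and 3 held 64, 15 and 85 reads, or 8.95, 1.59 and 11.1 CPM. Every homozygous library lay above every wild-type library, but replicate 2 was well below the other 2 homozygous libraries. The log2 fold change was 4.92 (SE 0.84, 95% interval 3.05 to 6.79, adjusted p = 0.0041), a 30.2-fold difference with an interval of 8.27 to 110. Pooled reads, 164 against 5, gave a ratio of 30.9 (exact 95% counting interval 13.0 to 96.4, which covers counting error only). Trim63 passed the filter on low counts only through the homozygous libraries, and without any filter its log2 fold change was 4.90. The call held in each fit that left out 1 library, with log2 fold changes from 4.45 to 5.41 and adjusted p from 3.1e-06 to 0.0226. Without both libraries high in Gm42418 the log2 fold change was 5.67, on 149 against 3 reads (ratio 55.5, counting interval 18.6 to 272). With 1 library left out the ratio ran from 21.7 (8.93 to 68.8), without homozygous replicate 3, to 46.0 (19.3 to 144), without homozygous replicate 2. Where this left 3 wild-type reads, without wild-type replicate 2 or 3, it was 37.3 (12.5 to 183) or 33.7 (11.3 to 165).

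The libraries with and without Y-linked reads each leave 1 library in an arm, so values within them are given without a test. Among libraries with at most 3 such reads, homozygous replicates 1 and 3 had 8.95 and 11.1 CPM against 0.116 in wild-type replicate 1. Among the rest, homozygous replicate 2 had 1.59 CPM against 0.318 and 0.254 in wild-type replicates 2 and 3, a much narrower gap. In a model that added presence of those reads as a covariate, the log2 fold change of Trim63 was 4.25 (adjusted p = 0.0026, where all alternatives gave 5.6e-24 to 0.0226).

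Markers of mature muscle fibres went the other way. Of 20 fibre markers, 19 were tested, of which 9 fell and 0 rose (also 0 at an unadjusted p under 0.05 and by DESeq2). The list summed to 135 to 231 CPM in homozygous and 278 to 388 CPM in wild-type libraries. No fibre marker was at 0 in all libraries. Acta1, the skeletal actin, stood at 9.23, 15.8 and 20.7 CPM in homozygous and 36.2, 37.5 and 21.8 CPM in wild-type libraries. The close relatives of Trim63 were too low to test. Trim54 (MuRF3) had 2, 4 and 3 reads in homozygous and 1, 0 and 0 in wild-type libraries, and Trim55 (MuRF2) had 1, 9 and 2 against 23, 14 and 5. In both, homozygous replicate 2 had the most reads of its group, where for Trim63 it had the fewest. That library also had the most gene reads, and for Trim54 it held 4 reads beside 3 in replicate 3. Such counts are too few to rank the libraries.

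Adipocyte markers moved the same way as Trim63: of 10 markers 7 were tested, of which 6 were higher and 0 lower (also 0 lower at an unadjusted p under 0.05 and by DESeq2). The list summed to 599, 625 and 1288 CPM in homozygous and 438, 304 and 370 CPM in wild-type libraries. Adipoq, which encodes adiponectin, had 9.09, 6.47 and 37.2 CPM against 0.231, 0.318 and 0.508, while Lep, the leptin gene, was at 0 in all homozygous libraries. Among homozygous libraries the summed list, Adipoq and Trim63 were each highest in replicate 3. The sum was lowest in replicate 1, at 599 CPM beside 625 CPM in replicate 2, while Adipoq and Trim63 were lowest in replicate 2. The pericyte markers Pdgfrb, Kcnj8 and Abcc9 were also higher, and Myh11 was lower. Kcnj8, a potassium channel subunit, had 246, 104 and 226 CPM in homozygous and 78.9, 84.1 and 58.2 CPM in wild-type libraries. Fibroblast and fibro-adipogenic progenitor markers were lower for 7 of 10 and higher for 1 (Pdgfra), with sums of 1898 to 3094 CPM in homozygous and 5759 to 6067 CPM in wild-type libraries. Schwann cell markers were higher for 3 and lower for 4 of 10 (4146 to 5811 against 5520 to 7045 CPM), and erythroid markers lower for 3 of 6 (216 to 880 against 892 to 1584 CPM). Endothelial sums (427 to 755 against 513 to 796 CPM) and leukocyte sums (44.5 to 73.8 against 38.3 to 74.2 CPM) overlapped between genotypes. Of the leukocyte markers 6 were tested, of which 2 were higher and 0 lower (1 lower at an unadjusted p under 0.05 and by DESeq2). No gene of these 5 lists was at 0 in all libraries. The part of any of these cell types in the Trim63 difference was not tested.

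**Figure D2:**
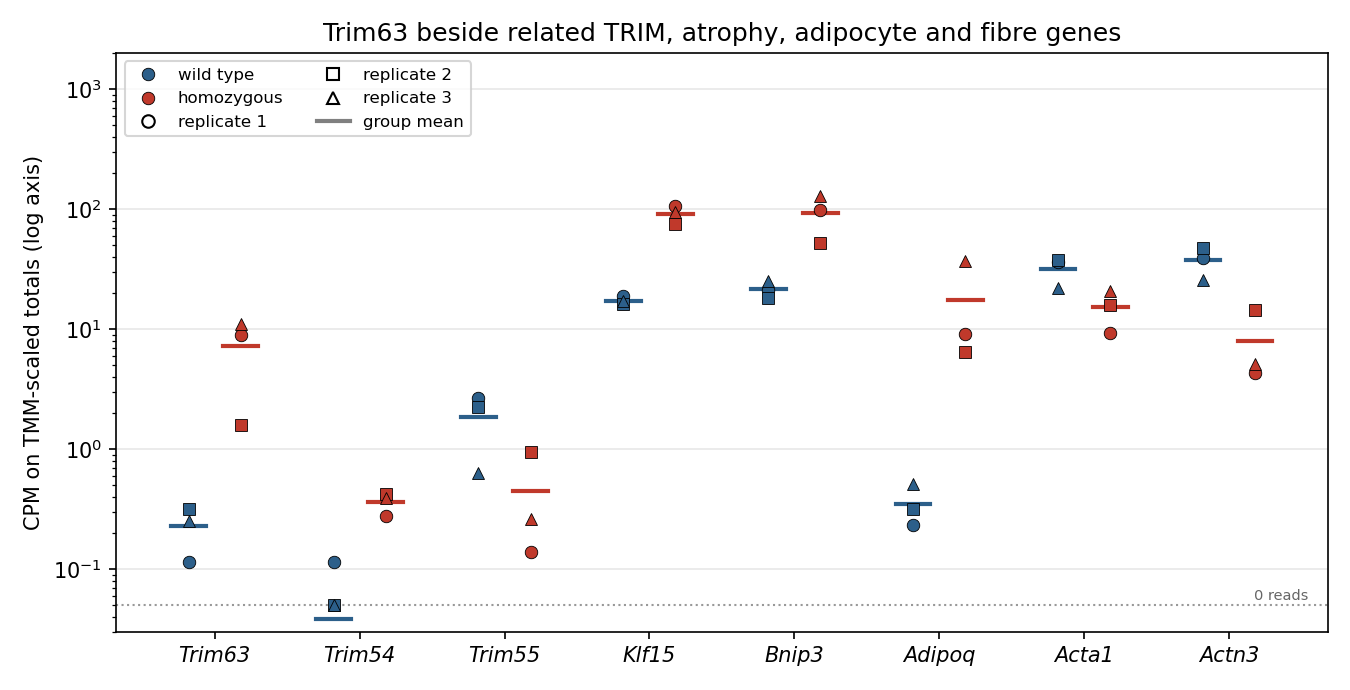
CPM (log axis) per library of Trim63, its relatives Trim54 and Trim55, the atrophy and mitophagy genes Klf15 and Bnip3, the adipocyte gene Adipoq and the fibre genes Acta1 and Actn3, with bars for group means. Points on the dotted line are libraries with 0 reads, and the bar of wild-type Trim54 lies under it because its mean includes them. Trim63, Klf15, Bnip3 and Adipoq were higher in homozygous libraries, and Acta1 and Actn3 lower.

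Fbxo31 encodes an F-box protein known to target cyclin D1, and its gene was the other member that rose. It lies on chromosome 8, positions 121549440 to 121578806, minus strand. Its 250 bases before the start (build GRCm38.p6, chr8:121578807-121579056, minus strand, from RefSeq) are given for comparison with Trim63 and hold neither motif, so they carry no capitals.
Fbxo31: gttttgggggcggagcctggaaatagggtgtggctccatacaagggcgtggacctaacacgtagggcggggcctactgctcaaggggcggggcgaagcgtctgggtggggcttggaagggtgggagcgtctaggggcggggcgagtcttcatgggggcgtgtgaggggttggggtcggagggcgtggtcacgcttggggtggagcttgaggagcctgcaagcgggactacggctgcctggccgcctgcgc

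This stretch is 68% G and C with 18 CpG dinucleotides, where that of Trim63 is 56.8% with 4. Fbxo31 stood at 38.3, 50.8 and 63.9 CPM in homozygous and 24.0, 22.6 and 21.1 CPM in wild-type libraries. The genotypes did not overlap, and the spread was wider among homozygous libraries. Its log2 fold change was 1.18 (SE 0.18, 95% interval 0.78 to 1.58, adjusted p = 0.0025), a 2.26-fold difference. Leaving out 1 library at a time gave 0.99 to 1.35 with adjusted p from 0.00093 to 0.0144, and with Y-linked reads as a covariate the value was 1.16. Among libraries with at most 3 Y-linked reads the levels were 38.3 and 63.9 against 24.0 CPM, and among the rest 50.8 against 22.6 and 21.1 CPM. The 45 tested genes of a list of other F-box proteins had log2 fold changes from -1.51 (Fbxl22) to 0.94 (Fbxo2, not called). All were below that of Fbxo31, but the list does not hold every F-box gene and was chosen with earlier results known.

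Fbxo30, known as MUSA1, is a ligase gene repressed by BMP signalling in muscle, and it was the most abundant of the 9 genes per length. The gene (chromosome 10, positions 11281330 to 11298052, plus strand) had 216, 223 and 189 CPM in homozygous and 215, 236 and 280 CPM in wild-type libraries. Wild-type replicate 1 lay within the homozygous range. Fbxo30 had a log2 fold change of -0.22 (SE 0.13, 95% interval -0.52 to 0.08, adjusted p = 0.269).

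Fbxo21, or SMART, is a further FoxO-dependent F-box gene of atrophying muscle (chromosome 5, positions 117976730 to 118010201, plus strand). Homozygous libraries had 29.2, 42.7 and 37.0 CPM and wild-type libraries 33.6, 34.7 and 31.1 CPM, so the wild-type values lay inside the homozygous range. The log2 fold change was 0.14 (SE 0.15, 95% interval -0.20 to 0.47, adjusted p = 0.540).

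Eif4ebp1 encodes 4E-BP1, which holds the cap-binding factor eIF4E back until mTORC1 phosphorylates it, and which FoxO factors are known to induce. The gene (chromosome 8, positions 27260329 to 27276674, plus strand) had 26.2, 27.7 and 32.6 CPM in homozygous and 22.3, 27.3 and 25.0 CPM in wild-type libraries. Only wild-type replicate 2 reached into the homozygous range. Its log2 fold change was 0.21 (SE 0.14, 95% interval -0.10 to 0.53, adjusted p = 0.307).

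**Figure D3:**
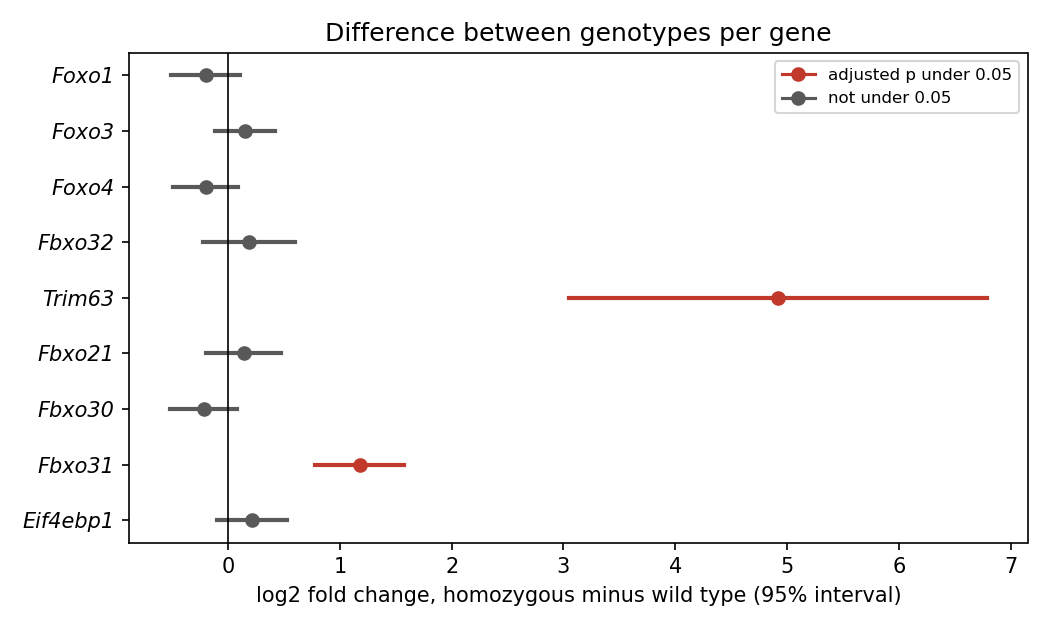
Log2 fold change (homozygous minus wild type) with its 95% interval for each of the 9 genes, in red where the adjusted p was under 0.05. The intervals of Trim63 (3.05 to 6.79) and Fbxo31 (0.78 to 1.58) lie above 0, and the other 7 include 0.

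Ordered by mean level per length, the wild-type libraries ran Fbxo30 (46.9 RPKM), Foxo3 (25.3), Foxo4 (14.8), Fbxo32 (12.3), Eif4ebp1 (11.3), Foxo1 (6.46), Fbxo21 (5.97), Fbxo31 (4.11) and Trim63 (0.0807). Ranges of neighbours overlapped for Fbxo32 and Eif4ebp1 and for Foxo1 and Fbxo21, and for no other pair. In homozygous libraries Fbxo31 (9.30 RPKM) stood sixth and Trim63 (2.54 RPKM) still last. There the 6 genes from Fbxo32 (14.0 RPKM) through Eif4ebp1, Foxo4, Fbxo31 and Fbxo21 to Foxo1 (5.63 RPKM) each overlapped with the next, while Fbxo30, Foxo3 and Trim63 stood apart. Trim63 RNA thus remained below that of every other member after its increase.

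Upstream of FoxO, the insulin and PI3K-Akt list held 25 tested genes, of which 7 (28%) were higher and 3 (12%) lower beside 9.67 and 11.5% of all genes, with a median log2 fold change of 0.15 beside -0.0038 over all genes tested. Igf1, which encodes a ligand of the pathway, had 6.99, 17.9 and 19.9 CPM in homozygous and 57.6, 66.8 and 70.5 CPM in wild type (difference of -2.11 on the log2 scale, SE 0.29, adjusted p = 0.0015), and Igf2 fell as well (-1.10, SE 0.16). Igf2 shares 62.8% of its exon bases with Gm49394, a gene on the same strand that is not among the genes counted here. Insr, the insulin receptor, rose from 84.6 ± 14.0 to 190 ± 32.8 CPM (a log2 difference of 1.16, SE 0.16, adjusted p = 0.0017). The receptor gene Igf1r (0.82, SE 0.15) and Pik3ip1, an inhibitor of PI3K (0.71, SE 0.16), rose too. These 5 genes passed without any 1 library. Trib2, an Akt-binding pseudokinase, was lower (-0.35, adjusted p = 0.0352) but passed in none of the 6 fits that left out 1 library (adjusted p 0.0646 to 0.104). Akt1 stood at 99.2 ± 3.00 and 101 ± 11.1 CPM and Akt2 at 116 ± 2.72 and 111 ± 3.44 CPM. When replicate 1 of either genotype was left out, 4 of the list were higher. The count was 3 when homozygous replicate 3, or replicate 2 or 3 of the wild type, was left out, and 4 with Y-linked reads as a covariate.

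Of 28 tested cofactors and modifying enzymes of FoxO proteins, 2 were higher and 3 lower (median -0.03). These shares, 7.14 and 10.7%, lie under the 9.67 and 11.5% of all genes. Mdm2, a ubiquitin ligase, was higher at 0.53 (adjusted p = 0.0143) and the acetyltransferase gene Ep300 at 0.44 (adjusted p = 0.0383). Lower were the coactivator gene Ppargc1a (-0.75, adjusted p = 0.0190), Skp2, an F-box gene (-0.89, adjusted p = 0.0258), and the deacetylase gene Sirt2 (-0.41, adjusted p = 0.0374). None of the 5 passed in every fit that left out 1 library. Without homozygous replicate 1 or wild-type replicate 1, 0 were higher and 0 lower. Leaving out homozygous replicate 3 left 1 higher and 0 lower. Leaving out wild-type replicate 2 left 1 and 1, and for wild-type replicate 3 it was 2 and 1. With Y-linked reads as a covariate it was 1 and 1. Adjusted p in the lost calls ran from 0.0522 to 0.137.

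FoxO target genes outside the 9, which include Insr and Pik3ip1 again, were higher for 13 of 41 tested genes, or 31.7% beside 9.67% of all genes, and lower for 2, with a median log2 fold change of 0.25. Some of these targets are shared with p53, among them Trp53inp1, Sesn1 and Cdkn1a. Trp53inp1, a stress protein of autophagy, had 855, 499 and 599 CPM in homozygous and 153, 155 and 161 CPM in wild type (a log2 difference of 2.06, SE 0.19, adjusted p = 0.00045). Bnip3, a mitophagy receptor, had 98.3, 51.7 and 129 CPM against 21.3, 18.1 and 25.3 CPM (2.10, SE 0.29, adjusted p = 0.0016), with 22.3% of its exon bases under the antisense gene Gm45507. Ddit4, the mTORC1 inhibitor REDD1, rose from 120 ± 6.86 to 213 ± 15.9 CPM (0.83, SE 0.11). Both lower genes were D cyclins, which FoxO factors are known to repress: Ccnd2 fell by 1.15 (SE 0.13) and Ccnd1 by 1.80 (SE 0.21). Ccnd1 shares 23.4% of its exon bases with LTO1 on the other strand. These 5 genes passed in every fit that left out 1 library, in which 10 to 14 targets were higher and 2 or 3 lower. Pck1, a gluconeogenic enzyme gene of fat and liver, had the largest difference of the list, with 447 homozygous against 3 wild-type pooled reads (ratio 140). Its 95% counting interval, 47.7 to 683, covers counting error only and not the spread between libraries. Homozygous replicate 3 held 47.7 CPM of Pck1 against 6.57 and 3.82 CPM in replicates 1 and 2. Without that library the ratio was 38.1 (12.6 to 188), below the interval from all libraries.

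**Figure D4:**
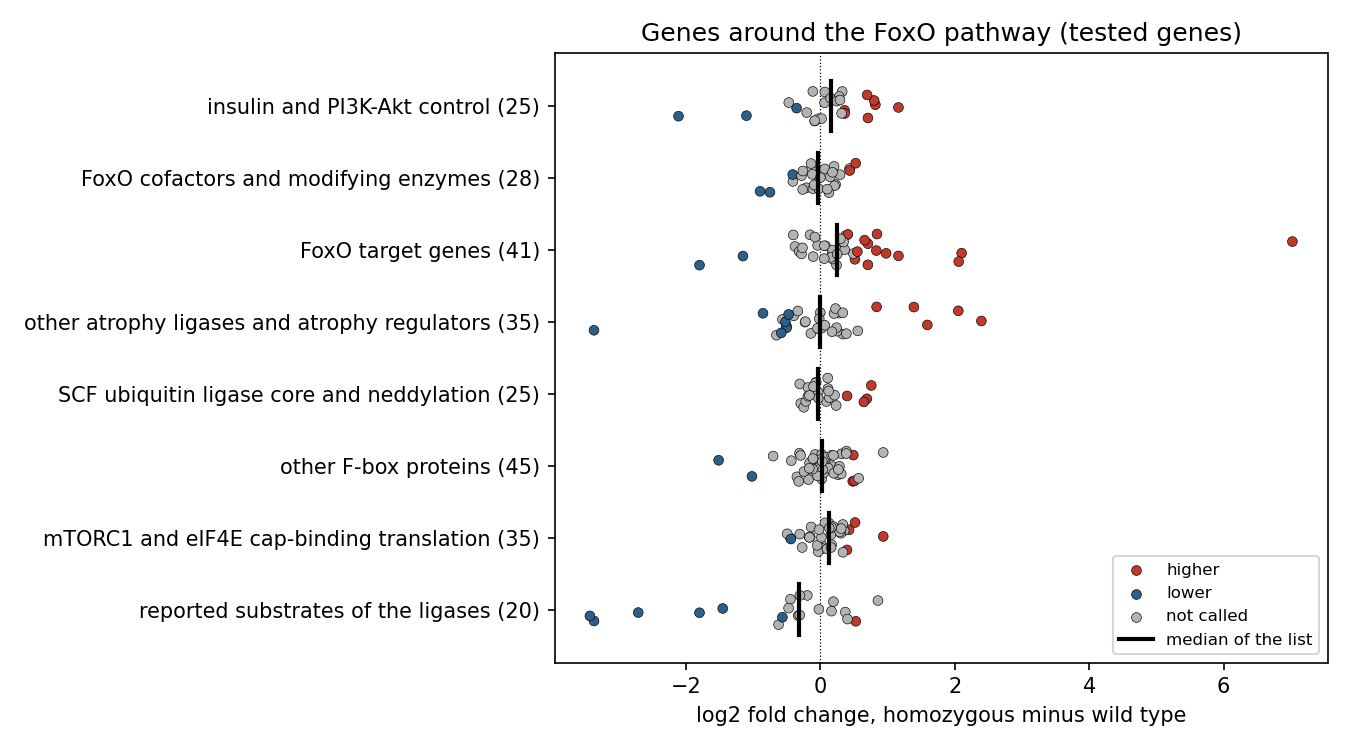
Log2 fold change (homozygous minus wild type) of each tested gene in 8 lists around the FoxO pathway, with the number of tested genes in brackets, higher genes in red, lower genes in blue and a bar at each list's median. Medians run from -0.32 for reported ligase substrates to 0.25 for FoxO targets.

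Of 35 tested genes of other atrophy ligases and regulators, 5 (14.3%) were higher and 7 (20%) lower beside 9.67 and 11.5% of all genes, and 23 did not pass (median 0.00074). The higher ones included Klf15, a glucocorticoid-induced transcription factor, at 105, 75.1 and 94.3 CPM in homozygous and 18.7, 16.2 and 17.0 CPM in wild type (a log2 difference of 2.40, SE 0.15, adjusted p = 0.00021). Il6ra, the interleukin-6 receptor, rose by 2.05 (SE 0.19), and Mt2, a metallothionein raised in atrophy, by 1.59 (SE 0.17), though 73.5% of its exon bases overlap Gm45774 on the other strand. Nr3c1, the glucocorticoid receptor gene, fell from 289 ± 6.42 to 194 ± 22.5 CPM (-0.58, SE 0.12, adjusted p = 0.0101). Leaving out homozygous replicate 3 ended that call (adjusted p = 0.0534). Myog, the myogenic regulator that activates Fbxo32 and Trim63 after denervation, had 1.26, 18.6 and 1.96 CPM against 95.8, 95.5 and 46.3 CPM (-3.36, SE 0.68, and -5.60 without homozygous replicate 2). Gdf11, a relative of myostatin, was lower at -0.85 (adjusted p = 0.0135), a call lost if homozygous replicate 3 (0.0526) or wild-type replicate 1 (0.0514) was left out. Lower genes numbered 3 when replicate 1 of either genotype was left out, 1 for homozygous replicate 3, and 4 for replicate 2 or 3 of the wild type. With Y-linked reads as a covariate 4 were lower. The higher genes numbered 5 or 6 in each of these fits.

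F-box proteins work through the SCF core, whose genes were higher for 4 of 25 and lower for 0 (16 and 0% beside 9.67 and 11.5% of all genes, with 1 lower at an unadjusted p under 0.05 and 0 by DESeq2), with a median of -0.03. Nae1, a subunit of the enzyme that activates NEDD8, rose by 0.65 (SE 0.13, adjusted p = 0.0081), and the ubiquitin-conjugating enzyme gene Cdc34 by 0.69 (SE 0.16, adjusted p = 0.0137). Cops3, of the COP9 signalosome, was higher at 0.76 (adjusted p = 0.0109, and 0.0501 without wild-type replicate 1, where 2 genes of this list were higher). Of the 45 tested genes on the list of other F-box proteins, 3 were higher and 2 lower (median 0.02), both shares under the background. Fbxw8 (0.48) and Fbxl20 (0.51) were among the higher ones, Fbxw8 with 33.4% of its exon bases under the antisense gene Gm9754. The calls were lost for Fbxw8 without homozygous replicate 3 or wild-type replicate 1 (adjusted p 0.0515 and 0.0521), and for Fbxl20 without wild-type replicate 2 (0.0583). Fbxl22, a sarcomeric F-box gene, fell by 1.51 (SE 0.28, adjusted p = 0.0055), and its exons overlap those of Herc1 on the other strand by 8.06%. Fbxo17 was lower (-1.02, adjusted p = 0.0460) and, of the fits that left out 1 library, passed only in that without homozygous replicate 2. The higher F-box genes numbered 6 without that library. They numbered 1 when homozygous replicate 3, or replicate 1 or 2 of the wild type, was left out, and 1 was lower in each fit but that without homozygous replicate 2. With Y-linked reads as a covariate 2 were higher and 1 lower.

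Around Eif4ebp1, 4 of 35 genes of mTORC1 and cap-dependent translation were higher and 1 lower (median 0.13), or 11.4 and 2.86% beside 9.67 and 11.5% of all genes. Tsc1, which restrains mTORC1, rose from 34.7 ± 2.90 to 66.6 ± 7.61 CPM (a log2 difference of 0.94, SE 0.13, adjusted p = 0.0015). It passed whichever library was left out. Mtor was higher at 0.43 (adjusted p = 0.0166) and Rictor, of mTORC2, at 0.52 (adjusted p = 0.0305). Eif4e, the partner of 4E-BP1, was lower, at 69.5, 67.3 and 67.0 CPM in homozygous and 77.8, 96.0 and 102 CPM in wild-type libraries (-0.44, SE 0.12, adjusted p = 0.0309). Each of these 3 calls was lost in 4 of the 6 fits that left out 1 library, with adjusted p from 0.0532 to 0.109. Higher genes numbered 1 when replicate 1 of either genotype or homozygous replicate 3 was left out, and 2 for replicate 2 or 3 of the wild type. Lower genes numbered 4 without homozygous replicate 2, still 1 if wild-type replicate 1 was left out, and 0 in the remaining 4 fits. With Y-linked reads as a covariate 1 was higher and 0 lower. Eif4ebp2, the paralogue of Eif4ebp1, stood at 15.3 ± 1.60 and 13.5 ± 2.26 CPM and did not pass (0.20, adjusted p = 0.448).

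Among genes reported as substrates of these ligases, 1 of 20 was higher, Mdm2, and 6 were lower (median -0.32), or 5 and 30% beside 9.67 and 11.5% of all genes. The lower ones were Ccnd1, Myog, Eid1, Myh2, Mybpc1 and Actc1, most of them genes of myogenic cells. Eid1, an inhibitor of differentiation, fell by 0.56 (SE 0.11), with 31.2% of its exon bases shared with Shc4 on the other strand. Myod1, the substrate of atrogin-1, stood at 43.9 ± 8.14 and 44.5 ± 4.22 CPM. The call of Mdm2 was lost without homozygous replicate 1 (adjusted p = 0.0522) or wild-type replicate 1 (0.0686).

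Patterns over the 6 libraries were compared by the root mean square difference of centred log2 CPM, among the 9288 genes that averaged 10 CPM or more. Trim63 was most like Cdo1, a cysteine dioxygenase gene (0.24), Xdh, the xanthine dehydrogenase gene (0.33), and Ucn2, the urocortin 2 gene (0.47). Cdo1 had 83.8, 26.5 and 179 CPM in homozygous and 7.99, 9.38 and 9.27 CPM in wild-type libraries. All 3 were chosen for following the differences of Trim63 between libraries. Wild-type Trim63, at 0.116 to 0.318 CPM, lay below the pseudocount of 0.5 added before taking logs, which narrowed its genotype difference in this comparison. The 3 genes had log2 fold changes of 3.44, 3.26 and 2.86, beside 4.92 for Trim63. Foxo1 was closest to Sin3a (0.034), Ccdc50 (0.043) and Zranb1 (0.043), Foxo3 to Tead3 (0.036), Ccdc6 (0.040) and Nmt2 (0.040), and Foxo4 to Ppp1r12a (0.040), Arhgap29 (0.044) and Tmem164 (0.044). For Fbxo32 they were Cecr2 (0.062), Ly6a (0.081) and Mindy4 (0.087). None of these 12 genes was called, but they were chosen for resembling members that were not called themselves.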

How the data were processed

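Total RNA of satellite cells was sequenced in 6 libraries (3 per genotype, placed by title) made with a stranded, rRNA-depleted kit, per the labels' protocols. For every library the authors deposited whole-number counts by Ensembl gene. The submitters' processing notes list build mm10 and the tools HTSeq 0.6.1, STAR 2.5.2b and Trimmomatic 0.32. Neither the strand setting nor the annotation release is given in the sources used here, and overlapping genes may therefore share reads. Summary lines, 45 to 49.8% of reads, were left out. Symbols, positions and exon lengths came from GENCODE M21 (38861 of 39059 identifiers matched).

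Counts were tested with edgeR 4.0.16 (R 4.3.3): filterByExpr (minimum count 10, minimum total 15), TMM factors and the quasi-likelihood test without covariates, adjusted over 14099 genes at 0.05. SE is the log2 fold change over the square root of F. Within a genotype no pair of libraries agreed within sampling noise (chi-square of 9.16 to 25.1 per gene). DESeq2 1.42.0 was an alternative. The test was checked on simulated counts.

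The members and lists were chosen with earlier results of these data known. Named genes are the members and Lmna, up to 3 called genes per list and direction with the smallest p, the 3 nearest patterns of 5 members (pseudocount 0.5), markers and overlapping genes. Akt1, Akt2, Foxo6, Trim54, Trim55, Eif4ebp2, Myod1, Pck1, Fbxo2, Sesn1, Cdkn1a, Myh2, Mybpc1 and Actc1 were added after their values were seen. Some genes that the rule or the lists include are not reported here.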

Additional observations from a re-analysis of the deposited data

How the results depend on the processing

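Trim63 and Fbxo31 were called higher, and no member lower, under all 15 alternatives. Of the other 7 genes only Fbxo32 changed sign, at -0.068 without homozygous replicate 2 (range -0.068 to 0.33 with 1 library left out) and -0.18 without both libraries high in Gm42418. Genes called numbered 1363 higher and 1617 lower, and 199 and 334 against a fold change of 1.5. With Y-linked reads as a covariate 793 were higher. Leaving out 1 library gave 655 to 1764 higher and 881 to 2238 lower genes. Pathway genes called numbered 36 higher and 22 lower, 9 and 8 against a fold change of 1.5, and 14 lower with the Y-linked covariate. Leaving out 1 library gave 22 to 44 higher and 9 to 28 lower. The cause of these shifts was not tested, except that a test against a fold change is stricter. Without homozygous replicate 2 the genes called rose to 1764 higher and 2238 lower. They fell in each other fit that left out 1 library. With the replicate block, 14 pathway genes were lower and 28 higher (3 lower among other atrophy genes, against 7), and Trim63 and Fbxo31 stood at 4.93 and 1.15. Deviations of same-numbered libraries were little correlated across genes (Pearson's r of -0.05, 0.02 and -0.10), so the numbers were not taken as pairs. Both replicate 2 libraries were high in Gm42418, and whether they shared a processing step was not tested. DESeq2 called 1165 genes higher and 1545 lower. Depth limits Trim63, with 1 or 2 reads per wild-type library.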
